A study of Ovis aries with 2 samples.

Results

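Solute carriers are membrane proteins that move amino acids, sugars, ions, metals, lipids and vitamins across the plasma membrane and the membranes of organelles. In these sheep cortex data, 157 genes whose symbols have the form SLC, a family number, the letter A and a member number were taken from the list of measured genes, out of 12652 distinct symbols, with SLC4A4 left out. The choice used names only and no measured value. 147 of the 157 had at least 1 unique molecular identifier (UMI, a count of 1 captured RNA molecule) in either library, and 119 had at least 20 over both libraries and could be compared.

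Nuclear RNA was sequenced nucleus by nucleus from the cerebral cortex of adult female Rambouillet sheep of 18 to 36 months, wildtype and without any treatment in life. There were 2 libraries, both labelled as the same batch. The pre-processed library came from tissue taken straight to nuclei isolation, and the post-processed library from tissue that first went through removal of debris and red blood cells. With 1 library per condition, every interval given covers counting error only, and preparation, depth and nucleus calling cannot be told apart from the processing step. Groups were read from the titles, because the post-processed sample's treatment field names the opposite treatment.

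Carriers work in pairs with pumps: the sodium-potassium pump builds the sodium gradient, and sodium-coupled carriers spend it on glutamate, glycine, proline, sugars or calcium. Brain cell types divide this work. Neurons recover transmitters and load synaptic vesicles, astrocytes take up glutamate and handle fuels, endothelial cells carry glucose and amino acids across the blood-brain barrier, oligodendrocytes need lipid and ion transport for myelin, and microglia handle iron and the products of lysosomes.

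The pre-processed library held 2125 nuclei with 9580441 UMIs and a median of 2524 UMIs per nucleus. The post-processed library held 494 nuclei with at least 100 detected genes, 765208 UMIs and a median of 667.5. Carriers took 1.49% of the UMIs before processing and 2.12% after it, with a median of 20 and 7 carriers detected per nucleus. Clusters made without any SLC gene were named from fixed markers, each with the ending "-like". The pre-processed library held 989 neuron-like, 360 astrocyte-like, 177 oligodendrocyte-like, 109 oligodendrocyte precursor-like, 58 microglia-like and 8 vascular-like nuclei. The post-processed library held 154 microglia-like, 56 oligodendrocyte-like, 29 vascular-like and 2 astrocyte-like nuclei, and no nucleus that was named neuron-like. Its label lists neurons, while SYT1, a synaptic vesicle protein of neurons, stood at 7338 counts per 1000000 UMIs (CPM) before processing and at 51.0 CPM after it. Clusters without a name held 424 of the pre-processed and 253 of the post-processed nuclei, among them a shallow cluster of 226 post-processed nuclei and a cluster of 27 nuclei in each library with markers of both oligodendrocytes and microglia.

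The first question was which carriers belonged to 1 cell class before processing. A carrier was called specific where it had at least 20 UMIs in the class and at least 4-fold the CPM of every other class with 50 or more nuclei. 11 of 114 carriers met this, against 5.38% of all genes under the same rule. By class, 5 of 111 carriers were specific to neuron-like nuclei, where 1.42% of all genes were. There were 3 of 82 for astrocyte-like nuclei (1.48% of all genes), 2 of 41 for oligodendrocyte-like nuclei (1.97%), 1 of 10 for microglia-like nuclei (15.8%) and 0 of 36 for oligodendrocyte precursor-like nuclei (0.913%). The microglial count is below the share of all genes and the others rest on few carriers. Because 20 UMIs is a higher CPM in a class with fewer UMIs, these counts cannot be compared between classes.

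**Figure D1:**
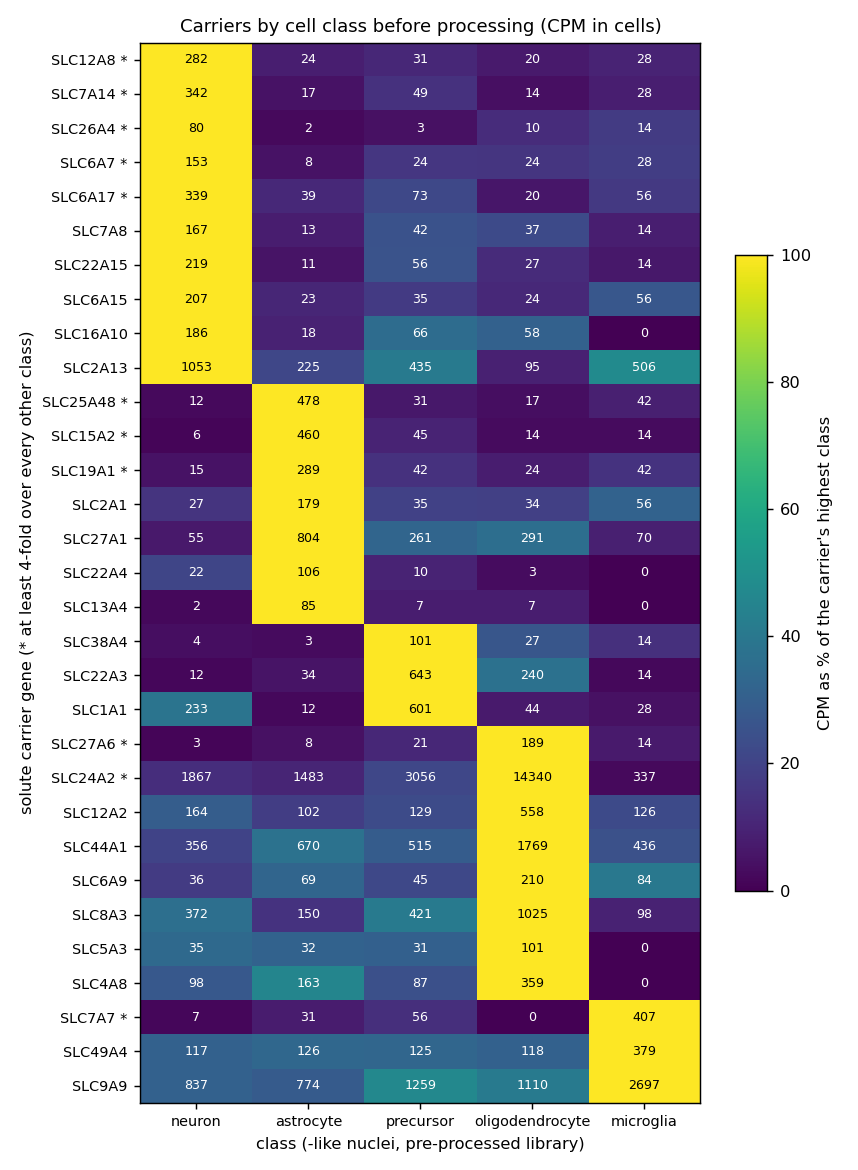
CPM of 31 carriers (rows) in each of the 5 classes of the pre-processed library (columns). Each had at least 20 UMIs in 1 class and stood at least 2-fold higher there. The number in each cell is the CPM and the colour gives it as a percent of that carrier's highest class. Asterisks mark the 11 carriers at 4-fold or more, such as SLC7A14 at 342 CPM in neuron-like and 14 to 49 CPM in the other nuclei. Vascular-like nuclei, too few to be compared, are left out.

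Of the 5 neuronal carriers, 3 move amino acids. SLC7A14, a lysosomal member of the cationic amino acid transporter family, reached 342 CPM in neuron-like nuclei (95% Poisson interval 328 to 356), 7.03-fold the 48.7 CPM of precursor-like nuclei. SLC6A17, which loads neutral amino acids into synaptic vesicles, reached 339 CPM (326 to 353), 4.65-fold the next class. SLC6A7, the brain's high-affinity proline transporter, reached 153 CPM (144 to 163) and 5.46-fold, over 2 UMIs in microglia-like nuclei. The intervals are for the CPM and not for the fold. Over the 4 glial classes these carriers stood at 7.54 to 73.0 CPM.

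The other 2 neuronal carriers belong to ion-carrying families. SLC12A8, a relative of the cation-chloride cotransporters, had the widest margin, at 282 CPM (270 to 295) and 9.01-fold the next class. SLC26A4, the anion exchanger pendrin, reached 80.4 CPM (73.8 to 87.4) and 5.72-fold, over 1 UMI in microglia-like nuclei. Just outside the threshold stood SLC7A8, a large neutral amino acid transporter, at 3.99-fold, SLC22A15, an organic ion transporter, at 3.93-fold, and SLC6A15, a neutral amino acid transporter, at 3.68-fold.

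Astrocyte-like nuclei had 3 specific carriers with different cargoes. SLC25A48, a mitochondrial carrier, stood at 478 CPM (437 to 521), 11.3-fold the 42.1 CPM of microglia-like nuclei, which rests on 3 UMIs. SLC15A2, the peptide transporter PEPT2, stood at 460 CPM (420 to 502), 10.2-fold the next class. SLC19A1, the reduced folate carrier, stood at 289 CPM (258 to 323) and 6.86-fold, also over 3 UMIs in microglia-like nuclei. Below the threshold came SLC2A1, the glucose transporter GLUT1, at 3.19-fold, SLC27A1, a fatty acid transporter, at 2.76-fold, and SLC22A4, an organic cation transporter, at 106 CPM, at least 2.53-fold over microglia-like nuclei when 3 counts are set for their 0 UMIs. Vascular-like nuclei, too few to be compared here, held SLC2A1 at a higher level than astrocyte-like nuclei, given below.

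In oligodendrocyte-like nuclei the potassium-dependent sodium-calcium exchanger SLC24A2 reached 14340 CPM (13912 to 14778). Its next class was the precursor-like one at 3056 CPM, 4.69-fold lower, and it was also read in neuron-like nuclei at 1867 CPM. After thinning each nucleus to 200 UMIs, 91.5% of oligodendrocyte-like nuclei held a UMI of SLC24A2 (exact 95% interval 86.4 to 95.2%), against 1.72% of microglia-like nuclei (0.0436 to 9.24%), whose unthinned share was 25.9%. SLC27A6, a fatty acid transporter, had 56 UMIs and 189 CPM (143 to 246) there, 9.08-fold the next class. Next in order were SLC12A2, the sodium-potassium-chloride cotransporter NKCC1, at 3.41-fold, SLC44A1, a choline transporter, at 2.64-fold, SLC6A9, the glycine transporter GLYT1, at 2.49-fold, and SLC8A3, a sodium-calcium exchanger, at 2.44-fold.

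Only 10 carriers had the 20 UMIs asked for in microglia-like nuclei. Of these SLC7A7, which exchanges cationic for neutral amino acids, was specific. It stood at 407 CPM (273 to 585) from 29 UMIs, 7.32-fold the precursor-like nuclei. None of the 177 oligodendrocyte-like nuclei held a UMI of it. SLC49A3 stood at 126 CPM in microglia-like nuclei and 0 to 10.4 CPM in the other classes, but its 9 microglial UMIs were too few for the rule. Below the threshold were SLC49A4, a lysosomal membrane transporter, at 3.005-fold and SLC9A9, an endosomal sodium-proton exchanger, at 2.14-fold. Precursor-like nuclei had no carrier past 4-fold. Their widest margins were 3.73-fold for SLC38A4, an amino acid transporter, from 29 UMIs, 2.68-fold for SLC22A3, an organic cation transporter, and 2.59-fold for SLC1A1, a neuronal glutamate transporter, at 601 CPM against 233 CPM in neuron-like nuclei.

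Among neurons of the pre-processed library, 195 inhibitory-like nuclei were compared with 746 excitatory-like nuclei. 5 of 108 carriers with enough UMIs were at least 2-fold higher in inhibitory-like nuclei, against 8.16% of all genes, and 13 were at least 2-fold lower, against 10.4%. Both counts are near or below the share of all genes. SLC44A5, of the choline transporter family, stood at 1144 CPM in inhibitory-like and 172 CPM in excitatory-like nuclei (log2 ratio 2.74, 2.61 to 2.86). SLC7A14 was 2.09-fold higher in inhibitory-like nuclei, at 531 against 254 CPM.

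Toward excitatory-like nuclei, SLC12A8 stood at 354 against 58.6 CPM (log2 inhibitory over excitatory -2.58, -2.96 to -2.25) and SLC26A4 at 90.6 against 17.3 CPM (-2.35). SLC9A9 stood at 1010 against 249 CPM (-2.02), but 4621 of its 5003 excitatory-like UMIs lay in a single cluster, at 1348 CPM. In the other excitatory-like clusters it stood at 242 and 265 CPM, and in the inhibitory-like ones at 161 and 334 CPM. SLC30A3, which loads zinc into glutamatergic vesicles, stood at 30.5 against 7.43 CPM from 151 and 9 UMIs (-1.96). SLC39A10, a zinc importer, was lower by 1.87 on the log2 scale and SLC6A7 by 1.76 in inhibitory-like nuclei. So 3 of the 5 carriers specific to neuron-like nuclei as a whole, SLC12A8, SLC26A4 and SLC6A7, were past 2-fold toward excitatory-like nuclei. SLC7A14 was past it toward inhibitory-like nuclei, and SLC6A17 was within 2-fold. The 48 neuron-like nuclei of neither side were left out, and held SLC7A14 at 632 CPM. The inhibitory-like clusters had it at 598 and 465 CPM. A cluster of 44 nuclei held 181 of the 449 excitatory-like UMIs of SLC26A4, at 338 CPM. The other excitatory-like clusters had SLC26A4 at 67.7 and 36.3 CPM, and the inhibitory-like ones at 18.4 and 16.3 CPM.

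Between the libraries, 31 of the 119 carriers were at least 2-fold higher after processing, against 30.4% of all 7614 genes with 20 or more UMIs, and 37 were at least 2-fold lower, against 21.3%. Their median log2 ratio was 0.16, and that of all genes was 0.33. The count of higher carriers is thus near the share of all genes, and the count of lower ones above it. No replicate library shows how far such counts vary.

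The direction differed with the class in which a carrier was highest before processing, with the few vascular-like nuclei left aside. Of 36 carriers highest in neuron-like nuclei, 27 were at least 2-fold lower after processing and 2 higher, with a median log2 ratio of -2.14. The 2 higher ones were SLC2A3 and SLC39A10. Before processing, the 8 vascular-like nuclei held 1 and 105 UMIs of them, and the 989 neuron-like nuclei 98 and 1849. Of all genes highest in neuron-like nuclei, 59.7% were lower and 7.11% higher, with a median of -1.97. Of 25 carriers highest in oligodendrocyte-like nuclei, 10 were higher and 0 lower (median 0.87), where 39.8% of all such genes were higher and 4.61% lower (0.78). Of 22 highest in microglia-like nuclei, 13 were higher and 0 lower (1.33), where 48.9% of all such genes were higher and 4.24% lower (0.97). The 24 highest in astrocyte-like nuclei had 4 higher and 6 lower (0.01), where 20.1% of all such genes were higher and 26.5% lower (-0.12). The 4 higher ones were SLC39A8, SLC6A13, SLC2A1 and SLC13A4. Of the first 3, the 8 vascular-like nuclei held 4, 18 and 52 UMIs before processing, and the 360 astrocyte-like nuclei 2, 3 and 190. SLC13A4 was higher through a single nucleus, given below. The 12 highest in precursor-like nuclei had 2 higher and 4 lower (0.26), where 21.0% of all such genes were higher and 21.9% lower (0.01). For the neuronal, oligodendrocyte and microglial classes, the carriers' median had the sign of the median of all genes of the class.

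**Figure D2:**
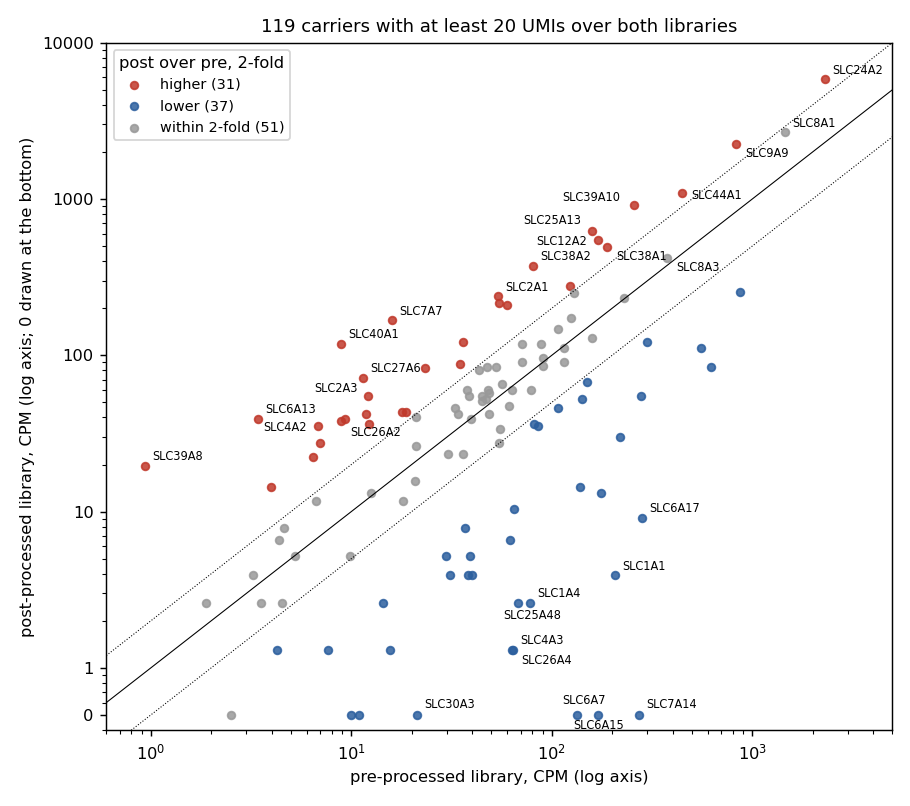
CPM of the 119 carriers in the pre-processed (x axis) and post-processed library (y axis), both on log axes with values of 0 drawn at the bottom; the solid line marks equal CPM and the dotted lines 2-fold. SLC39A8, SLC40A1, SLC6A13 and SLC7A7 lie farthest above the lines, and SLC6A7, SLC6A15, SLC7A14 and SLC30A3 lie at 0 after processing.

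6 of the 37 lower carriers had no UMI after processing, and 5 of them had been highest in neuron-like nuclei, the exception being SLC39A2, highest in astrocyte-like nuclei. SLC7A14 fell from 2603 UMIs to 0, SLC6A15 from 1637 to 0, SLC6A7 from 1279 to 0 and SLC30A3 from 203 to 0. Set against 3 counts in the post-processed library, SLC7A14 was at least 69.3-fold lower, SLC6A15 at least 43.6-fold, SLC6A7 at least 34.0-fold and SLC30A3 at least 5.40-fold. SYT1 fell 142-fold in the same comparison.

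Other carriers were left with a few UMIs. SLC1A1 went from 1982 UMIs and 207 CPM to 3 UMIs and 3.92 CPM (log2 ratio -5.50, -8.0006 to -4.17). SLC26A4 and SLC4A3, an anion exchanger of excitable cells, had 610 and 617 UMIs before and 1 UMI each after processing. SLC1A4, a neutral amino acid exchanger, went from 745 to 2 UMIs, and the astrocytic SLC25A48 from 650 to 2. SLC6A17 went from 2705 to 7 UMIs, and 5 of those 7 lay in 1 vascular-like nucleus. The other astrocytic carriers differed from each other: SLC15A2 was lower by 3.11 on the log2 scale (592 to 5 UMIs) while SLC19A1 stood at 48.4 CPM before and 41.8 CPM after processing. Of the 32 UMIs of SLC19A1 after processing, 20 lay in microglia-like nuclei, 4 in vascular-like nuclei and 3 in 1 astrocyte-like nucleus.

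At the other end, 3 of the 10 carriers with the highest ratios had most of their post-processed UMIs in microglia-like nuclei. These nuclei held 319801 of the library's 765208 UMIs. SLC40A1, the iron exporter ferroportin, stood at 8.87 CPM before and 119 CPM after processing, a 13.4-fold difference (log2 3.74, 3.30 to 4.19), with 53 of 91 UMIs in microglia-like nuclei. SLC7A7 stood at 15.97 and 167 CPM (log2 3.39, 3.04 to 3.74), with 81 of 128 UMIs there. SLC26A2, a sulfate transporter, stood at 8.87 and 37.9 CPM, with 18 of 29 UMIs there. By level after processing, SLC26A2 stood at 56.3 CPM in microglia-like and 60.3 CPM in vascular-like nuclei, and SLC40A1 at 166 and 161 CPM. The vascular-like values rest on 3 and 8 UMIs. The microglial marker INPP5D stood at 108 and 2618 CPM, so it moved 24.2-fold.

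SLC27A6 had 34 of its 55 post-processed UMIs in oligodendrocyte-like nuclei and stood at 11.5 CPM before and 71.9 CPM after processing (log2 2.65, 2.15 to 3.13). The oligodendrocyte marker UGT8 moved from 214 to 1123 CPM. SLC38A2, a neutral amino acid transporter that responds to amino acid shortage, was spread over classes: its 287 UMIs after processing comprised 113 in microglia-like, 62 in oligodendrocyte-like and 18 in vascular-like nuclei, 59 in the cluster with markers of 2 classes and 35 in the shallow cluster. It stood at 80.4 and 375 CPM (log2 2.22, 2.02 to 2.42).

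The 29 vascular-like nuclei held 49791 of the post-processed UMIs and most of the UMIs of several carriers. SLC39A10 had 506 of 702 UMIs there, at 10162 CPM (9296 to 11088), against 235 CPM in microglia-like and 267 CPM in oligodendrocyte-like nuclei. In 26 of the 29 nuclei it had at least 1 UMI, and no nucleus had more than 66. SLC2A1, the glucose transporter of the blood-brain barrier, had 148 of 183 UMIs in vascular-like nuclei at 2972 CPM, 119-fold the next of these classes, over 22 nuclei. SLC2A3, the glucose transporter GLUT3, had 33 of 42 UMIs there over 9 nuclei, and SLC7A8 had 39 of 40.

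The same pattern was read before processing, in the 8 vascular-like nuclei of that library. SLC39A10 stood at 6610 CPM from 105 UMIs in 6 of the 8 nuclei and SLC2A1 at 3273 CPM from 52 UMIs in 6 of the 8. SLC39A8, a zinc and manganese importer, had 4 of its 9 UMIs before and 11 of its 15 UMIs after processing in vascular-like nuclei, so its log2 ratio of 4.35 (3.10 to 5.76) rests on few molecules. SLC6A13, a GABA and taurine transporter, had 22 of 30 UMIs after processing in 3 vascular-like nuclei, with 13 of them in 1 nucleus.

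Specificity after processing was read over microglia-like, oligodendrocyte-like and vascular-like nuclei only. These held 319801, 138714 and 49791 UMIs, so the filter of 20 UMIs asked for the highest CPM in vascular-like nuclei. The counts below can therefore not be compared between the classes. 5 of 8 carriers with at least 20 UMIs in vascular-like nuclei were at least 4-fold over both other classes, against 25.7% of all genes: SLC2A1, SLC39A10, SLC7A8, SLC2A3 and SLC6A13. In oligodendrocyte-like nuclei there were 7 of 19 (13.5% of all genes), among them SLC24A2 at 13.9-fold, SLC44A5 at 10.7-fold, SLC8A3 at 7.86-fold and SLC44A1 at 5.67-fold. In microglia-like nuclei there were 2 of 36 (7.32% of all genes): SLC8A1, a sodium-calcium exchanger, at 6.69-fold and SLC36A1, a lysosomal amino acid exporter, at 6.28-fold. SLC7A7 was 3.15-fold over vascular-like nuclei, where it had 4 UMIs.

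**Figure D3:**
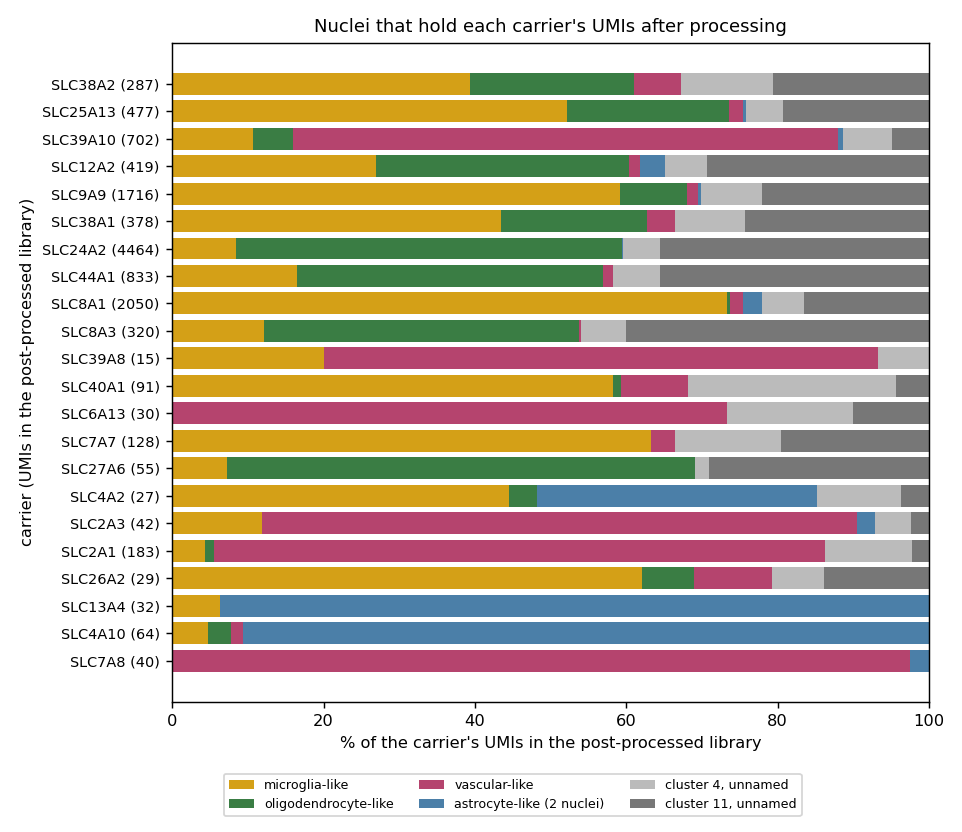
Share of each carrier's UMIs in the post-processed library (x axis, percent) by class of nucleus (colours), with the number of UMIs in brackets. SLC39A10, SLC2A1 and SLC7A8 lie mostly in the 29 vascular-like nuclei, SLC8A1 and SLC9A9 in microglia-like nuclei, SLC24A2 in oligodendrocyte-like nuclei and in cluster 11, and SLC13A4 and SLC4A10 in 1 nucleus of the astrocyte-like cluster, which has 2 nuclei in this library.

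A single nucleus carried the post-processed values of 2 carriers and weighed on others. It was 1 of the 2 astrocyte-like nuclei of that library and held 10446 UMIs. It had 58 of the library's 64 UMIs of SLC4A10, a sodium-driven bicarbonate transporter, 30 of the 32 of SLC13A4, a sulfate transporter, 22 of the 52 of SLC16A10, an aromatic amino acid transporter, and 10 of the 27 of SLC4A2, an anion exchanger. Of the 9 measured astrocyte markers it had 2 UMIs of GLI3 and 1 UMI each of RYR3, BMPR1B and FGFR3, while GJA1, S100B, MLC1, RFX4 and NTSR2 were at 0. In the pre-processed library no nucleus had more than 4 UMIs of SLC13A4. With this nucleus, SLC13A4 stood 3.59-fold higher after processing. Without it, the log2 ratio went from 1.84 to -1.84. SLC4A10 went from -2.89 to -6.18 and SLC16A10 from -1.13 to -1.90, lower in both cases, and SLC4A2 from 2.39 to 1.76, higher in both.

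10 carriers had at least 300 CPM in the post-processed library. SLC24A2 stood at 2301 CPM before and 5834 CPM after processing (log2 1.34, 1.30 to 1.39), SLC8A1 at 1450 and 2679 CPM (0.89, 0.82 to 0.95), and SLC9A9 at 833 and 2243 CPM (1.43, 1.35 to 1.504). SLC44A1 stood at 446 and 1089 CPM, SLC39A10 at 258 and 917 CPM, SLC25A13, the mitochondrial aspartate-glutamate carrier, at 158 and 623 CPM, and SLC12A2 at 170 and 548 CPM. SLC38A1, a glutamine transporter, stood at 190 and 494 CPM. The 9th was SLC38A2, given above, and the 10th, SLC8A3, stood at 376 and 418 CPM (log2 0.16, -0.02 to 0.32). Of the 10, SLC8A1 and SLC8A3 were within 2-fold and the other 8 were higher. After thinning each nucleus to 200 UMIs, 4 of these 8 were no longer past 2-fold: SLC24A2 (log2 0.43), SLC12A2 (0.75), SLC44A1 (0.58) and SLC38A1 (0.97), while SLC8A1 was (1.32). Without nuclei that held markers of a second class, SLC24A2 (0.01), SLC12A2 (0.98) and SLC44A1 (0.60) were within 2-fold, SLC8A1 was higher (1.28) and SLC8A3 lower (-1.37).

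For SLC24A2 the level and the share of nuclei did not move together. After thinning to 200 UMIs, 33.8% of pre-processed (31.8 to 35.9%) and 32.6% of post-processed nuclei (28.0 to 37.4%) held a UMI of it, so the shares overlapped although the CPM differed 2.54-fold. Unthinned, the shares were 82.7% and 42.3%. Of its 4464 UMIs after processing, 2275 lay in the 56 oligodendrocyte-like nuclei and 1589 in the 27 nuclei of the cluster with markers of oligodendrocytes and microglia. SLC8A1 went the other way, with thinned shares of 18.6% (17% to 20.4%) and 37.3% (32.6 to 42.2%).

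SLC8A1 also changed its place. Before processing, 11617 of its 13888 UMIs were in neuron-like nuclei, where it stood at 1689 CPM, while microglia-like nuclei had 3175 CPM from 226 UMIs. After processing, 1504 of its 2050 UMIs came from microglia-like nuclei, while oligodendrocyte-like nuclei had 8. Among microglia-like nuclei 41.4% held a thinned UMI before (28.6 to 55.1%) and 62.3% after processing (54.2 to 70.0%). The level of 1 gene in the 2 libraries was thus carried by different classes of nuclei.

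Within a class the libraries differed less. In oligodendrocyte-like nuclei (177 before, 56 after), 0 of 48 carriers were at least 2-fold higher after processing, against 4.24% of all genes, and 10 were at least 2-fold lower, against 13.2%. SLC24A2 stood at 14340 and 16401 CPM there (log2 0.19, 0.12 to 0.27), SLC44A1 at 1769 and 2429 CPM (0.46, 0.26 to 0.66) and SLC12A2 at 558 and 1009 CPM (0.86, 0.52 to 1.19). SLC8A3 at 1025 and 959 CPM and SLC9A9 at 1110 and 1089 CPM differed by less than their counting error.

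The 10 lower carriers of oligodendrocyte-like nuclei were SLC4A10, SLC66A1, SLC8A1, SLC2A12, SLC22A17, SLC2A13, SLC36A1, SLC35A3, SLC25A37 and SLC6A9. With a filter of 50 UMIs 3 carriers were lower, and the rest of the 10 did not reach that filter. Without nuclei that held markers of a second class 2 were lower. SLC8A1 stood at 260 and 57.7 CPM (log2 -2.10, -3.44 to -1.13) and SLC4A10 at 129 and 14.4 CPM from 38 and 2 UMIs (-2.85). SLC6A9, with its highest level in this class before processing, stood at 210 and 101 CPM (-1.02, -2.01 to -0.20). The neuronal marker SYT1 stood at 653 and 101 CPM in the same nuclei. What part neuronal RNA has in the lower values was not tested.

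In microglia-like nuclei (58 before, 154 after), 5 of 46 carriers were at least 2-fold higher, against 11.8% of all genes, and 6 were at least 2-fold lower, against 10.7%. Both counts are near the share of all genes. SLC5A3, the sodium-myo-inositol cotransporter, had 0 UMIs in the 58 nuclei before processing and 46 UMIs in 20 of the 154 after it, which is at least 3.41-fold higher when 3 counts are set for the 0. SLC12A2 stood at 126 and 353 CPM (log2 1.41, 0.51 to 2.65), SLC30A9, a mitochondrial zinc transporter, at 112 and 244 CPM (1.04, 0.07 to 2.38), and SLC35A1, the CMP-sialic acid transporter of the Golgi, at 42.1 and 156 CPM from 3 and 50 UMIs.

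The fifth was SLC24A2, at 337 CPM before and 1182 CPM after processing (log2 1.78, 1.21 to 2.47). Its 378 UMIs lay in 27 of the 154 nuclei, and 3 nuclei held 196 of them. The oligodendrocyte marker UGT8 stood at 112 and 281 CPM in the same nuclei. A further run, chosen after the data were seen, left out every microglia-like nucleus with a UMI of an oligodendrocyte marker. It kept 31 and 83 nuclei. SLC24A2 then stood at 221 and 60.1 CPM from 8 and 6 UMIs, the opposite direction (log2 -1.85, -3.68 to -0.16). SLC12A2 in those nuclei stood at 55.2 and 251 CPM from 2 and 25 UMIs (1.89, 0.18 to 5.31). SLC30A9 stood at 82.8 and 311 CPM from 3 and 31 UMIs (1.71, 0.23 to 4.26). Both kept their direction, on few UMIs before processing. SLC5A3 had 0 and 15 UMIs, at least 1.82-fold higher, and SLC35A1 stood at 82.8 and 60.1 CPM from 3 and 6 UMIs (-0.57, -2.69 to 2.17).

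The 6 lower carriers of microglia-like nuclei included SLC44A5, SLC22A17, SLC49A3, SLC39A14 and SLC25A40. None was called lower with a filter of 50 UMIs, where 21 carriers were compared, or without oligodendrocyte marker UMIs, where 19 were. SLC44A5 stood at 211 and 25.02 CPM from 15 and 8 UMIs (log2 -3.03, -4.52 to -1.75) and SLC22A17, a receptor for the siderophore-binding protein lipocalin, at 155 and 40.7 CPM (-1.94, -3.20 to -0.62). SYT1 stood at 1349 and 34.4 CPM in these nuclei. Of carriers that were high in the class, SLC8A1 stood at 3175 and 4703 CPM (log2 0.56) and SLC9A9 at 2697 and 3177 CPM (0.23). SLC7A7 stood at 407 and 253 CPM (log2 -0.70). Without oligodendrocyte marker UMIs the log2 ratio of SLC8A1 was 0.93 (0.64 to 1.24). That of SLC9A9 was then 0.34 (0.01 to 0.68) and that of SLC7A7 -0.86 (-1.85 to 0.20). All these values were within 2-fold. SLC7A7 was thus 10.5-fold higher over the library but within 2-fold in the class.

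**Figure D4:**
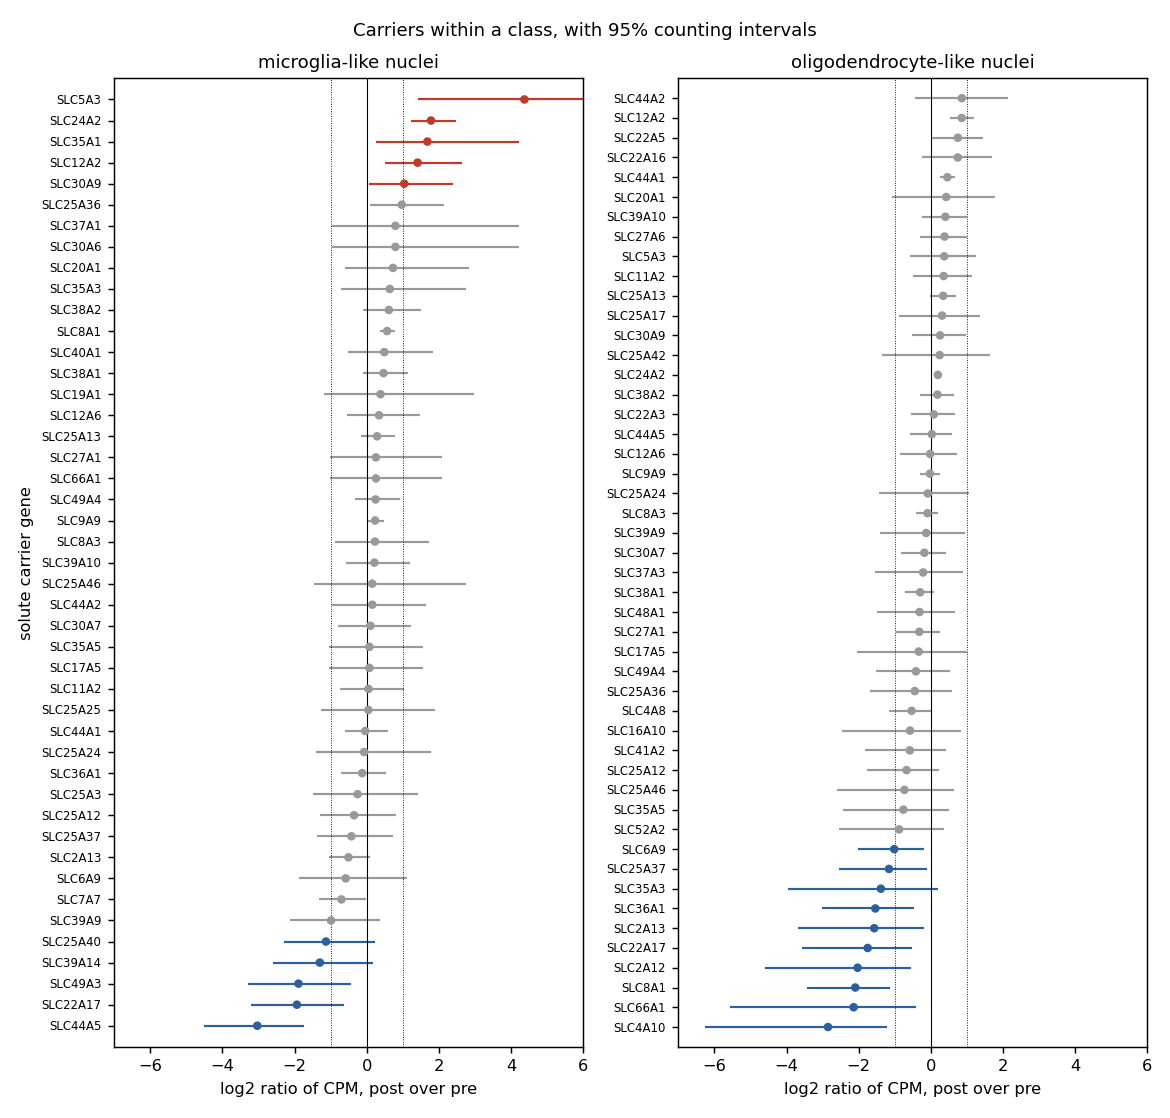
Log2 ratio of CPM, post-processed over pre-processed (x axis), for each carrier with at least 20 UMIs (rows), with microglia-like nuclei on the left and oligodendrocyte-like ones on the right. Points are ratios, lines 95% counting intervals and dotted lines 2-fold. In oligodendrocyte-like nuclei no point passes 2-fold to the right and 10 pass it to the left, and in microglia-like nuclei 5 points pass to the right and 5 to the left, with 1 lower carrier not drawn.

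Carriers were also grouped by the cargo of their family, with 30.4% of all genes higher and 21.3% lower as the background. Of 17 amino acid carriers with enough UMIs, 9 were at least 2-fold lower and 4 higher (median log2 -1.41, and 0.33 over all genes). The lower ones were SLC7A14, SLC6A15, SLC6A7, SLC1A1, SLC6A17, SLC1A4, SLC1A6, SLC38A4 and SLC7A8, while the higher ones were SLC6A13, SLC7A7, SLC38A2 and SLC38A1. Over the 5 classes compared, all the lower ones had been highest before processing in neuron-like, precursor-like or astrocyte-like nuclei. SLC6A13 of the higher ones was highest in astrocyte-like nuclei on 3 UMIs, while the 8 vascular-like nuclei, left aside there, held 18 UMIs of it. Whether cargo matters beyond cell class was not tested. Of 18 carriers of zinc, iron, copper and magnesium, 7 were higher and 3 lower (median 0.78), near the shares of all genes. The higher ones were SLC39A8, SLC40A1, SLC39A1, SLC39A10, SLC11A2, SLC31A1 and SLC30A4. SLC11A2, an iron importer, stood at 59.9 and 210 CPM, and SLC31A1, a copper importer, at 12.2 and 36.6 CPM.

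Of 13 carriers of bicarbonate, chloride and protons, 4 were higher and 6 lower, and of 15 carriers of choline, organic ions and fatty acids, 4 were higher and 6 lower. Of 16 mitochondrial carriers 10 were within 2-fold, among them SLC25A3, the phosphate carrier, while SLC25A36, a pyrimidine nucleotide carrier, stood at 54.5 and 216 CPM and SLC25A12 at 297 and 122 CPM. SLC25A12 and SLC25A13 are sister aspartate-glutamate carriers, and they went opposite ways, at log2 -1.28 (-1.60 to -0.99) and 1.98 (1.82 to 2.13). Of 11 sugar carriers, 3 were higher (SLC2A3, SLC2A1 and SLC5A3) and 3 lower (SLC45A4, SLC2A8 and SLC2A13). Of 4 monocarboxylate carriers, SLC16A7, SLC16A14 and SLC16A10 were lower, and SLC16A1 stood within 2-fold (median of the 4, -2.10). SLC16A10 stands here by its family number although it carries aromatic amino acids. Counted by that cargo, a choice made after the data were seen, 10 of 18 amino acid carriers and 2 of 3 monocarboxylate carriers were lower.

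**Figure D5:**
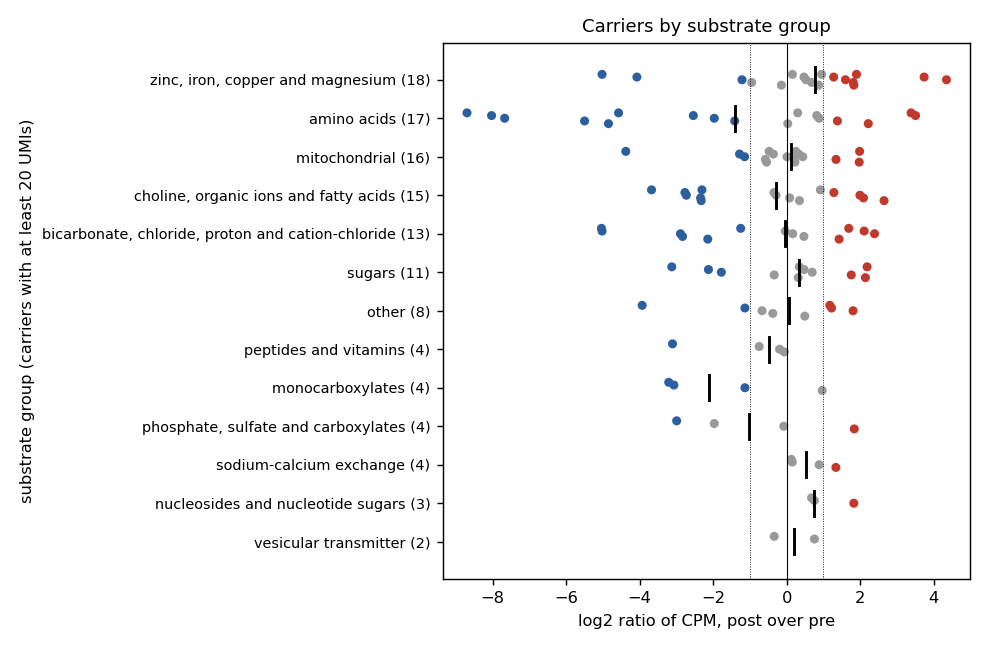
Log2 ratio of CPM between the libraries, post-processed over pre-processed (x axis), for the 119 carriers by substrate group (rows, number of carriers in brackets). Points are carriers, coloured red where at least 2-fold higher and blue where at least 2-fold lower, and black bars are group medians. The amino acid carriers reach from SLC7A14 at the far left to SLC6A13 at 3.51.

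Of 30 listed pumps and partners of carriers, 13 were among the measured genes. 5 of them were at least 2-fold higher after processing, where 30.4% of all genes were, including WNK1 and STK39, kinases that control cation-chloride cotransporters, MFSD2A, a lipid transporter of the blood-brain barrier, and SLCO1A2, an organic anion transporter. ATP1B3, WNK2 and SLCO5A1 were at least 2-fold lower, and the median log2 ratio of the 13 was -0.43. WNK1 stood at 227 and 592 CPM over the libraries (log2 1.39, 1.24 to 1.53) and STK39 at 267 and 561 CPM (1.07, 0.92 to 1.22). The single deep nucleus held 66 of the 429 post-processed UMIs of STK39, and without it STK39 stood at 481 CPM, 1.80-fold higher and within 2-fold. Within microglia-like nuclei, WNK1 stood at 421 and 450 CPM and STK39 at 239 and 381 CPM, both within 2-fold. WNK2, a kinase of the same family, went from 5738 to 20 UMIs (log2 -4.48, -5.23 to -3.89).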

How the data were processed

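In the matrices as deposited, each value is a raw count of UMIs for 1 gene in 1 barcode. DRAGEN is named in the submitters' processing notes. No coordinates are printed, because the genome build is not given in the sources used here. Neither are DRAGEN's version and the barcode calling rule. Both matrices list the same 13765 features, which the RefSeq table of the ARS-UI_Ramb_v3.0 assembly places on chromosomes 1 to 9. All 157 carriers matched that table, which holds 325 symbols of the same form; the others were not analysed here. UMI totals and CPM refer to the listed genes only. No carrier sequences were used here.

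Nuclei were barcodes in which 100 or more genes were detected (2125 of 2125 and 494 of 905), and no barcode was shared between the libraries. Both libraries were clustered together without SLC genes in Seurat 5.3.0 under R 4.3.3, by the Louvain method at resolution 0.5 on 30 principal components of 2000 variable genes, log-normalized to 10000 and not integrated. Clusters were named by the mean standardized level of fixed markers. The naming rule was written after the clusters had been seen. It asked for at least 3 markers raised 1.5-fold and left shallow clusters, clusters with a second class within a share of 0.7 of the first, and clusters led by another class's markers without a name. Endothelial and mural markers were joined as vascular, and no doublet caller was run.

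CPM was computed here from summed counts in Python 3.11.15, with exact Poisson intervals from scipy 1.17.1. Ratios had 0.5 counts added and exact conditional binomial intervals, a 0 was bounded with 3 counts, and a ratio of at least 2-fold on at least 20 UMIs was counted as higher or lower. The same rule was applied to all genes as background. Shares of nuclei used exact Clopper-Pearson intervals after each nucleus was thinned to 200 UMIs (89 shallower post-processed nuclei were not used). UMIs of one nucleus are not independent samples of the animal, and 1 library per group allows no test. The ratio calls were checked on simulated counts. The named carriers were, per class, up to 6 specific ones with the widest margin, the 10 highest and 10 lowest ratios between the libraries, those with at least 300 CPM after processing, the 6 highest and 6 lowest within a class, and the leader of each substrate group; other names were chosen after their values were seen. The members and lists were chosen with earlier results of these data known. Individual values of 2 genes are not reported here.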

Additional observations from a re-analysis of the deposited data

Results flagged for a closer look

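The 411 post-processed barcodes under 100 detected genes, which no comparison uses, held 553 UMIs of solute carriers among 28995 UMIs. This was flagged because it is signal in barcodes outside the main measurement. SLC24A2 had 103 of these UMIs (3552 CPM), SLC8A1 had 67 (2311 CPM), SLC9A9 had 52 and SLC39A10 had 31, while SLC7A14 and SLC6A7 had none. The source of this RNA was not tested.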

How the results depend on the processing

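The counts of 31 higher and 37 lower carriers stayed within 1.5 times under every alternative run except thinning each nucleus to 200 UMIs, which left 72 carriers with enough UMIs and gave 13 higher and 22 lower. The median log2 ratio of 0.16 became -0.17 when scaled by the median of all genes (a shift of 0.33) and -0.014 after thinning. Removing the cluster with markers of 2 classes, the shallow cluster or the single deep nucleus, all chosen after seeing the data, gave 34, 33 and 30 higher and 34, 36 and 39 lower carriers. The 11 specific carriers became 17 at resolution 0.2, 7 with classes from marker UMIs, 26 over the 2 classes left without nuclei holding markers of a second class, and 31 at 2-fold. Within microglia-like nuclei, 8 were higher with classes from marker UMIs, 0 were lower with a filter of 50 UMIs, and 3 were higher and 0 lower of 19 without oligodendrocyte marker UMIs. The lower carriers of this class had too few UMIs to be called with that filter or without those marker UMIs. Within oligodendrocyte-like nuclei, 1 was higher with classes from marker UMIs, 3 were lower with a filter of 50 UMIs and 2 without second-class nuclei. The other lower carriers of that class did not reach 50 UMIs. At resolution 0.2 and without second-class nuclei no microglia-like value could be had. SLC24A2's log2 ratio between the libraries of 1.34 became 0.43 after thinning and 0.01 without second-class nuclei, SLC12A2's became 0.75 and 0.98, SLC44A1's 0.58 and 0.60, and SLC38A1's 0.97 after thinning. SLC8A1 passed 2-fold in both (1.32 and 1.28), and SLC8A3 became -1.37 without second-class nuclei. SLC13A4 reversed to -1.84 without the deep nucleus. Other causes were not tested. No paired analysis was possible because each group has 1 library.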
